A study of Mus musculus with 12 samples.

Results

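Cytosolic heat shock proteins were followed here as 10 genes: Hsf1, the regulator, and the chaperone genes Hspa1b, Hspa1a, Hspa8, Hsph1, Hsp90aa1, Hsp90ab1, Dnaja1, Dnajb1 and Hspb1. They were taken as a named list, not by any measured value, and all 10 were found among the 35434 genes of the count table. All 10 also passed the filter on low counts, as did 15269 genes in total. Hsf1 encodes a transcription factor and not a chaperone, so the label fits 9 of the 10.

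The tissue was bulk RNA of subcutaneous 4T1 tumours, grown from a mouse triple-negative breast cancer line in female BALB/c mice aged 6 to 8 weeks. HI mice lived in a low-pressure chamber set to 3500 m and received IOX2, an inhibitor of the oxygen sensor PHD2, at 10 mg/kg into the abdomen each day for 10 days from day 9 after inoculation. HC mice lived in the same chamber setting with vehicle, MI mice lived at about 1500 m with IOX2, and MC mice lived at about 1500 m with vehicle. Each group had 3 tumours from 3 mice out of 24 mice in the study, all with 3 days of acclimatization before inoculation and tumours taken on study day 22. Chamber housing went with altitude in every mouse, so their effects cannot be told apart, and altitude below stands for both. The study asked how high-altitude hypoxia and PHD2 act on tumour growth through ferroptosis. The heat shock genes are set beside that question as genes of protein folding.

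Heat shock proteins are chaperones that hold and refold other proteins. HSF1 rests in the cytosol with HSP70 and HSP90, and when misfolded proteins occupy those chaperones it enters the nucleus, forms trimers and switches on their genes at heat shock elements, which are inverted repeats of the unit GAA. Hspa1a, Hspa1b, Hsph1, Dnajb1 and Hspb1 are the classic inducible targets, Hspa8 and Hsp90ab1 are made at high levels without stress, and many carcinoma cells keep HSF1 activity high.

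The promoter windows below are those with an exact match to the core of a heat shock element, and are shown because HSF1 is known to bind such repeats near the starts of its target genes. RefSeq windows of build GRCm38.p6, from 250 bases before to 50 after a transcription start, were at hand for 6 of the 10 members. The build differs from the GRCm39 build of the counts, so the windows serve for sequence only. Capitals mark exact matches to GAANNTTC or TTCNNGAA, each the same on both strands, or to these joined as 3 units. Hspa1b and Hspa1a lie on the minus strand at chr17:34959189-34959488 and chr17:34972107-34972406.
Hspa1b: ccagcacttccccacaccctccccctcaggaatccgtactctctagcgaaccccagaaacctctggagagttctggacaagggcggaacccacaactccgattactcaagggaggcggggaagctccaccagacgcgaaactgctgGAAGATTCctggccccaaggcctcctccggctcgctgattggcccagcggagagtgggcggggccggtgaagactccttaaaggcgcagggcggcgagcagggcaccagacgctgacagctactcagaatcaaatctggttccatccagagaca
Hspa1a: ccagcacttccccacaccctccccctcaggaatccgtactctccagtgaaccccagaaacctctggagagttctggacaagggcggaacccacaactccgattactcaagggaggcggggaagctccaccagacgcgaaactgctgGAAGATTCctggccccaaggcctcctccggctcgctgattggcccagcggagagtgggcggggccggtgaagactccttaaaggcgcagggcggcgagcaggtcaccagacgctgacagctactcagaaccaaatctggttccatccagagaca
Hsph1 lies on the minus strand at chr5:149636287-149636586, Hspb1 on the plus strand at chr5:135887669-135887968 and Dnaja1 on the plus strand at chr4:40722218-40722517.
Hsph1: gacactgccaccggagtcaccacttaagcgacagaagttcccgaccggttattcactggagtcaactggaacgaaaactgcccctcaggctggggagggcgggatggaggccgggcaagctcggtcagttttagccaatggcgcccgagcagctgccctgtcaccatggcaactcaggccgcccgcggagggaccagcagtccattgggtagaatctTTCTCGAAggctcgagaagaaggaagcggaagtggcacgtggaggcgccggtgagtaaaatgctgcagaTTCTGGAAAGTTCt
Hspb1: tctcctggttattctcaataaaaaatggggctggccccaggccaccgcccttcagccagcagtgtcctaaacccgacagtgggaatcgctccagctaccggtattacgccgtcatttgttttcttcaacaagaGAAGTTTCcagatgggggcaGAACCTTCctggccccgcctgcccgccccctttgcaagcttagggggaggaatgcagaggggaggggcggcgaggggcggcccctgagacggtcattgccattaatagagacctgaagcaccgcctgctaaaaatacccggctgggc
Dnaja1: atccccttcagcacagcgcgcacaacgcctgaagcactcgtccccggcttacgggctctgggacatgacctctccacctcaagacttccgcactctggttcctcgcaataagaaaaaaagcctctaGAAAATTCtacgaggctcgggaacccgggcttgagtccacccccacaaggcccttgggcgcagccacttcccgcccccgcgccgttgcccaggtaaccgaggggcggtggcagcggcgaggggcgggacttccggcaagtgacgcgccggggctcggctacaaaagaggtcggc

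In Hspa1b and Hspa1a the match sat 104 to 97 bases before the start, and the windows of this pair differed at 4 of 300 positions. Hsph1 had a TTCNNGAA match 33 to 26 bases before the start and the 3-unit form TTCNNGAANNTTC from base 37 to base 49, inside which a TTCNNGAA and a GAANNTTC match overlap. A second Hsph1 window, with a start nearby, held the same bases. Hspb1 had GAANNTTC matches at 117 to 110 and 97 to 90 bases before the start. Dnaja1 had a match 124 to 117 bases before the first of its 3 starts and none in the windows of the other starts. Neither of the 2 Dnajb1 windows held an exact match. Of 32851 RefSeq windows of this length, 7.86% held GAANNTTC, 8.52% held TTCNNGAA, and 15.1% held at least 1 of them. The 3-unit form TTCNNGAANNTTC was in 0.320% and GAANNTTCNNGAA in 0.311%, with either in 0.603%. A match describes the letters only.

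The libraries held 31661685 to 40019343 counts each. Levels below are CPM, counts scaled to library size with TMM factors, which ran from 0.925 to 1.03, and 3 counts, the limit that a count of 0 allows, equal 0.0728 to 0.0917 CPM. Together the 10 genes took from 0.607% (MI3) to 0.793% (HI1) of a library's counts. Per length, on the deposited FPKM scale, the order of mean levels over 12 tumours was Hsp90ab1 (1596 ± 141), Hspa8 (912 ± 120), Hsp90aa1 (241 ± 21.9), Dnaja1 (46.9 ± 4.16), Hspa1b (26.4 ± 10.2), Dnajb1 (23.0 ± 2.24), Hsf1 (14.7 ± 1.34), Hsph1 (8.17 ± 1.37), Hspb1 (6.85 ± 3.43) and Hspa1a (1.63 ± 0.895), each with its SD. Each of the 3 most abundant genes stood above the next in all 12 tumours. Neighbours Hspa1b and Dnajb1 were not separated, with Hspa1b above in 7 of 12, nor were Hsph1 and Hspb1, with Hsph1 above in 9 of 12. The tumour label held in the sense that the summed level of 6 epithelial markers (Krt8, Krt18, Krt7, Epcam, Cdh1, Cldn4) was 3685 to 4784 CPM in every library, with none at 0. In bulk tissue, fewer cells of a type and less RNA per cell cannot be told apart.

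**Figure D1:**
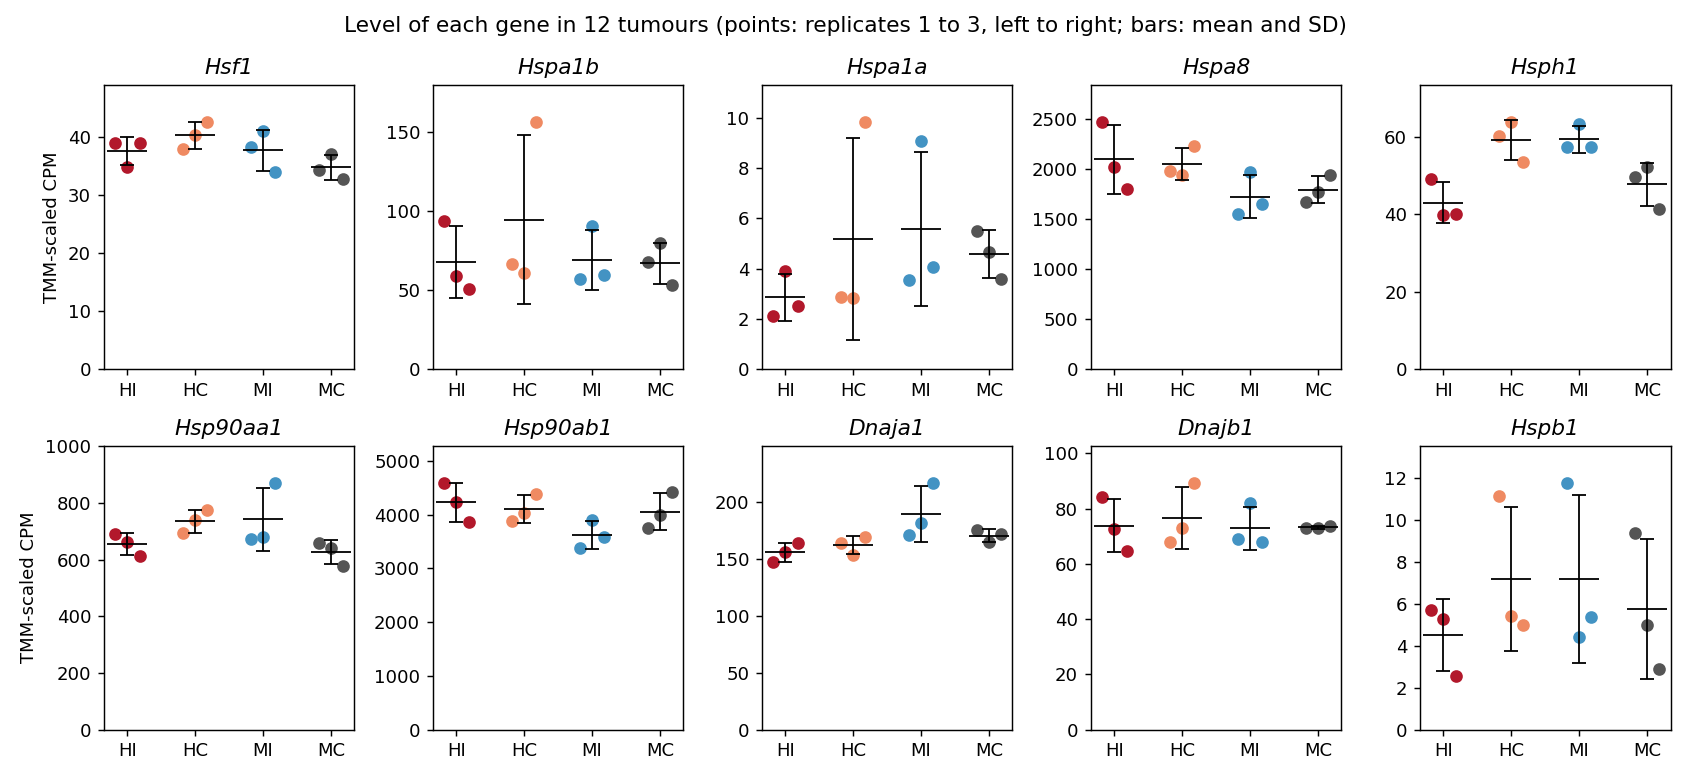
Level of each of the 10 genes in the 12 tumours, as TMM-scaled CPM on axes from 0, with 1 point per tumour in replicate order and the mean and SD (n = 3) as bars. Hsph1 is the gene whose HI and MC points lie below its HC and MI points without overlap, and Hspa1b has 1 high tumour, HC3, at 156 CPM.

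Counted against the whole table, few of the heat shock genes passed a test. In edgeR's quasi-likelihood test with Benjamini-Hochberg adjustment over 15269 genes, 0 of the 10 were called at adjusted p under 0.05 in any of 7 comparisons, where the background called was 0% in HC against MC, 0% in HI against MI, 0.0262% in MI against MC and 0% in HI against HC. It was 0.498% in the altitude effect averaged over treatment, 0.0393% in the IOX2 effect averaged over altitude, and 0% in the interaction. The count was also 0 by limma-voom in all 7. By DESeq2 it was 0 in 5 of the 7 and 1 of 10 in HI against MI, with a background of 2.55%, and 1 of 10 in the interaction, with a background of 0.167%. That 1 gene was Hsph1 in both.

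At an unadjusted edgeR p under 0.05, 2 of the 10 passed in HC against MC, against 12% of all genes tested, and 3 of 10 in HI against MI, against 15.2%. In MI against MC 2 of 10 passed, against 9.39%, and in HI against HC 1 of 10, against 4.85%. The averaged altitude effect had 2 of 10, against 17.3%, the averaged IOX2 effect 0 of 10, against 5.12%, and the interaction 2 of 10, against 8.21%. These counts differ from the background by less than 2 genes.

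In direction, 9 of the 10 had a higher fitted mean in HC than in MC, with a median log2 difference of 0.20 against -0.01 over all genes. In HI against MI 3 of 10 were higher, with a median of -0.10 against -0.01 over all genes. In MI against MC 7 were higher, with a median of 0.14 against 0.01, and in HI against HC 2 were higher, with a median of -0.13 against 0.00. The interaction was above 0 for 2 of the 10, with a median of -0.32 against -0.02 over all genes. With DESeq2 size factors or on the FPKM scales the number higher was 8 or 9 in HC against MC, 3 or 4 in HI against MI, 7 or 8 in MI against MC and 2 in HI against HC. These comparisons share groups, so their directions are not separate evidence. Some other gene lists were also mostly higher in HC than in MC, and some were mostly lower. All 7 adipocyte markers (Adipoq, Plin1, Cidec, Lep, Fabp4, Retn, Cfd) were higher there with an unadjusted p under 0.05 (median 2.92), and their sum was 190, 302 and 37.7 CPM in HI, 554, 366 and 64.6 in HC, 149, 75.7 and 69.4 in MI, and 62.5, 36.9 and 57.1 in MC. All 9 immediate-early genes were higher too, 5 of them with an unadjusted p under 0.05 (median 0.35), and their sum was 794 to 1003 CPM in HI, 885 to 1009 in HC, 820 to 854 in MI and 751 to 795 in MC. All 6 proliferation markers (Mki67, Top2a, Cdk1, Ccnb1, Rrm2, Mcm5) were higher, 3 of them with an unadjusted edgeR p under 0.05 (median 0.34). So were 5 of 6 neutrophil markers (S100a8, S100a9, Csf3r, Cxcr2, Retnlg, Mmp9), with 3 at such a p (median 0.85). Mostly lower in HC were the macrophage markers (Csf1r, Adgre1, C1qa, C1qb, Cd68, Mrc1), at 5 of 6, with 2 at such a p (median -0.25). Lower too were 4 of 6 endothelial markers (median -0.05) and 3 of 5 T cell markers (median -0.09), with 0 at such a p. Of all genes, 12% had such a p. Over the 12 tumours no member was related to any of these sums at an adjusted permutation p under 0.05. None of these genes was at 0 in any tumour or called by edgeR, and their part in the members' values was not tested. Groups of 3 did not overlap, with HC higher, for 3 of the 10, against 10.3% of all genes, and with HC lower for 0, against 11.4%. In HI against MI they did not overlap with HI higher for 0, against 8.02%, and with HI lower for 2, against 6.61%. In MI against MC the counts were 2 with MI higher, against 4.75%, and 0 with MI lower, against 6.32%. In HI against HC they were 0 with HI higher, against 5.74%, and 2 with HI lower, against 5.61%.

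**Figure D2:**
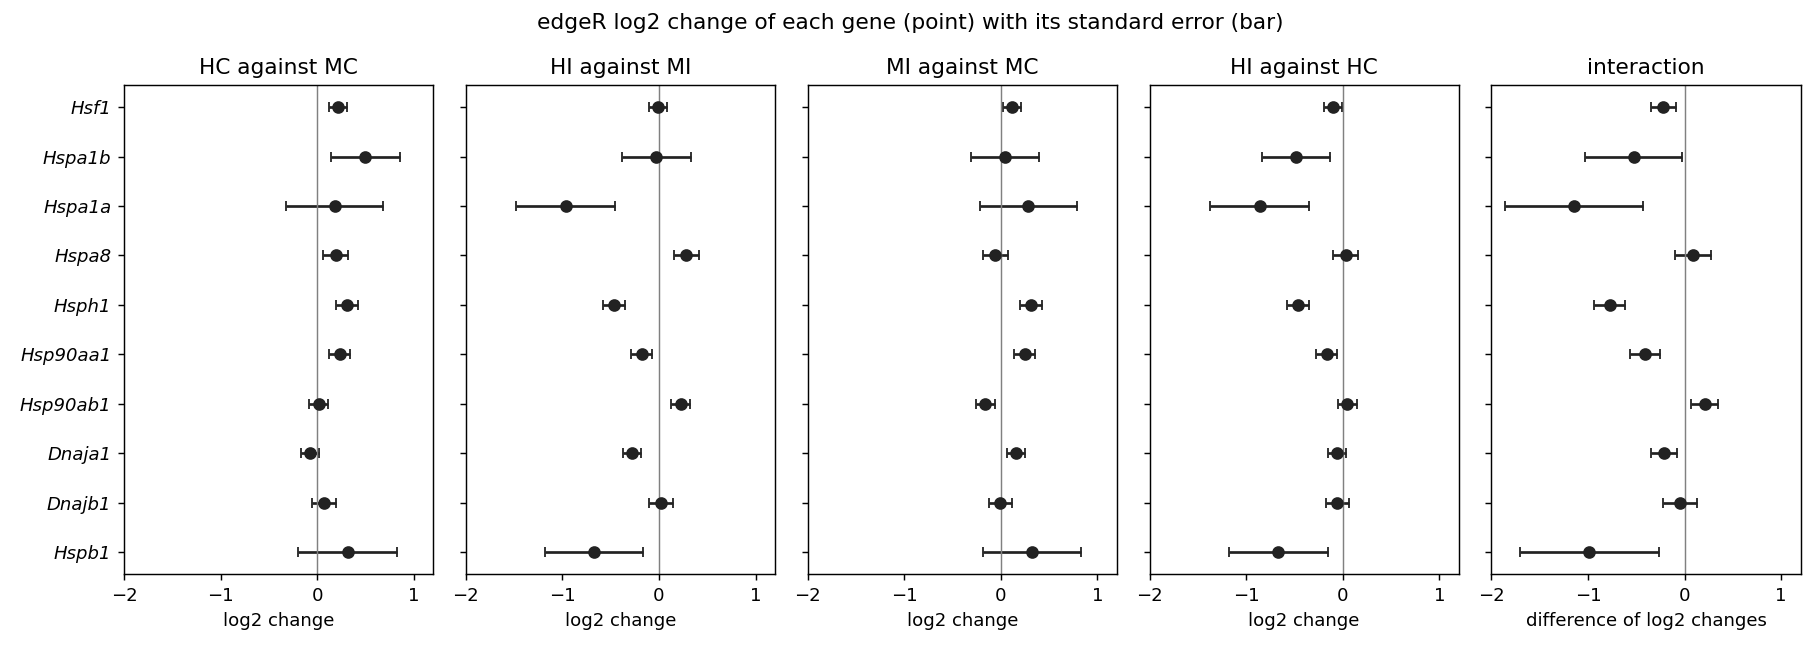
Fitted edgeR log2 change of each gene in 4 pairwise comparisons and the altitude by IOX2 interaction, with the standard error as a bar. Hsph1 lies above 0 in HC against MC and MI against MC, below 0 in HI against MI and HI against HC, and at -0.78 in the interaction.

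Hsf1, the regulator, held a nearly even level. It was at 38.9, 34.7 and 38.9 CPM in HI, 37.8, 40.3 and 42.5 in HC, 38.1, 40.9 and 33.9 in MI, and 34.3, 37.1 and 32.7 in MC. Every HC tumour was above every MC tumour, while HI and MI overlapped. The log2 difference was 0.21 in HC against MC (SE 0.09, edgeR unadjusted p = 0.0402, adjusted p = 0.395) and -0.01 in HI against MI (SE 0.09). With a pooled within-group SD of 0.104 on the log2 scale, Hsf1 varied less than the all-gene median of 0.203, and 16.4% of genes varied less than Hsf1. HSF1 is mostly regulated after translation, so its mRNA is not a readout of its activity.

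Hspa1b and Hspa1a encode the stress-inducible cytosolic HSP70 from near-identical neighbouring genes. Hspa1b was at 93.3, 58.7 and 50.8 CPM in HI, 66.1, 60.95 and 156 in HC, 56.7, 90.6 and 59.2 in MI, and 67.7, 79.4 and 53.3 in MC. The HC3 tumour stood above the other 11, and all pairs of groups overlapped. Hspa1a was far lower, at 2.11, 3.92 and 2.51 CPM in HI, 2.87, 2.81 and 9.85 in HC, 3.56, 9.10 and 4.05 in MI, and 5.49, 4.64 and 3.59 in MC. Its highest tumours were HC3 and MI2, and again the groups overlapped.

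The log2 difference of Hspa1b in HC against MC was 0.50 (SE 0.35, adjusted p = 0.627), and without HC3 it was -0.07. In HI against HC it was -0.48 (SE 0.35, adjusted p = 0.966), and without HC3 it was 0.09. For Hspa1a the values were 0.18 (SE 0.50, adjusted p = 0.936) in HC against MC, -0.69 without HC3, and -0.86 (SE 0.51, adjusted p = 0.964) in HI against HC, 0.00 without HC3. HC3 therefore set the sign of all 4 differences. The HI against MI difference does not use that tumour, although its SE and p do, since all 4 groups share 1 estimate of the spread. It was -0.03 (SE 0.35) on the log2 scale for Hspa1b and -0.97 (SE 0.51, edgeR adjusted p = 0.375) for Hspa1a.

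These genes share sequence, which bears on how reads were divided between them. Of the 150-base windows of their transcripts in GENCODE M21, 1074 of 2818 (38.1%) of Hspa1a were also found in Hspa1b, which is 40.5% of the 2654 windows of Hspa1b. A single read from such a stretch cannot be assigned to 1 gene, unless its mate in the read pair falls in sequence that differs. How such reads were counted is not given in the sources used here. Hspa1a was 2.22% to 9.13% of the summed counts. With both genes summed into 1, the log2 difference was 0.48 in HC against MC (SE 0.36, adjusted p = 0.649) and -0.08 in HI against MI (SE 0.36, adjusted p = 0.928).

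Hsph1 encodes HSP110, the nucleotide exchange factor that resets HSP70 and helps it pull aggregates apart, and it was the only member whose groups did not overlap in any of the 4 pairwise comparisons. It was at 49.1, 39.9 and 40.2 CPM in HI, 60.2, 63.97 and 53.7 in HC, 57.6, 63.4 and 57.4 in MI, and 49.6, 52.2 and 41.5 in MC. Every HI tumour lay below every HC and every MI tumour, and every HC and MI tumour lay above every MC tumour, while HI and MC overlapped. The group means were 43.1 ± 5.25 CPM in HI, 59.3 ± 5.20 in HC, 59.5 ± 3.42 in MI and 47.8 ± 5.58 in MC (SD, n = 3).

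On the log2 scale Hsph1 differed by 0.31 in HC against MC (SE 0.11, edgeR unadjusted p = 0.0187, adjusted p = 0.325) and by -0.47 in HI against MI (SE 0.11, unadjusted p = 0.00164, adjusted p = 0.187). The IOX2 differences were 0.32 in MI against MC (SE 0.11, adjusted p = 0.492) and -0.46 in HI against HC (SE 0.11, adjusted p = 0.964). The mean of Hsph1 was thus higher with altitude or IOX2 alone and lower where the other was also present. The interaction was -0.78 (SE 0.16, edgeR unadjusted p = 0.000468, adjusted p = 0.596), so it did not pass the threshold over all genes. DESeq2 gave -0.80 (adjusted p = 0.0166), and over all alternatives the value ran from -0.88 to -0.68 and the adjusted p from 0.0166 to 0.918. In HI against MI, DESeq2 gave -0.48 (adjusted p = 0.0155), within a range of -0.57 to -0.40 and of adjusted p from 0.0155 to 0.538. The summed level of 6 endothelial markers (Pecam1, Cdh5, Kdr, Tie1, Emcn, Egfl7) was also lowest in HI, at 225 to 248 CPM, against 280 to 344 in HC, 304 to 418 in MI and 312 to 323 in MC. No endothelial marker was at 0. Pearson's r of Hsph1 with the endothelial sum was 0.547 (adjusted permutation p = 0.458 over 130 relations of members with marker lists). It was -0.276 with group means removed. With the proliferation and neutrophil sums r was 0.56 and 0.579 (adjusted permutation p = 0.43 for both). These became 0.741 and 0.647 with group means removed. The part of any of these in the Hsph1 values was not tested.

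Hsp90aa1 and Hsp90ab1 encode the inducible and the constitutive cytosolic HSP90, which folds kinases and steroid receptors. Hsp90aa1 was at 690, 662 and 613 CPM in HI, 693, 738 and 774 in HC, 672, 681 and 871 in MI, and 658, 641 and 577 in MC. HC and MI tumours all lay above the MC tumours, HI tumours lay below HC tumours, and HI and MI overlapped. Its log2 difference was 0.23 in HC against MC (SE 0.11, edgeR unadjusted p = 0.0519, adjusted p = 0.422) and -0.17 in HI against HC (SE 0.11, adjusted p = 0.964).

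MI3 was the highest tumour for Hsp90aa1. It also had the lowest TMM factor, 0.925, which raises its CPM. On the FPKM scale Hsp90aa1 was at 283 in MI3, against 239 in MI1 and 246 in MI2. In MI against MC the log2 difference was 0.25 (SE 0.11, adjusted p = 0.492), and 0.12 without MI3, while in HI against MI it was -0.18 (SE 0.11, adjusted p = 0.426), and -0.05 without MI3. The interaction was -0.41 (SE 0.15, edgeR unadjusted p = 0.0199, adjusted p = 0.596), and -0.29 without MI3. The direction of Hsp90aa1 was that of Hsph1 in all 4 pairwise comparisons, at a smaller size. Hsf1, Hspa1a, Hspa1b and Hspb1 had these directions too.

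Hsp90ab1 did not follow Hsp90aa1. It was at 4594, 4239 and 3868 CPM in HI, 3883, 4035 and 4388 in HC, 3384, 3895 and 3592 in MI, and 3744, 3994 and 4421 in MC. All pairs of groups overlapped, with MI lowest on average. The log2 difference was 0.22 in HI against MI (SE 0.10, edgeR unadjusted p = 0.0421, adjusted p = 0.315) and 0.02 in HC against MC (SE 0.10, adjusted p = 0.974).

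Hspa8, the constitutive HSP70 that serves in folding, clathrin uncoating and autophagy, had levels of 2474, 2020 and 1800 CPM in HI, 1981, 1946 and 2237 in HC, 1556, 1972 and 1653 in MI, and 1673, 1769 and 1947 in MC. The tumours at altitude had the higher mean with either treatment, and the groups overlapped. Averaged over treatment, the log2 altitude difference was 0.24 (SE 0.09, edgeR unadjusted p = 0.024, adjusted p = 0.217). It was 0.28 in HI against MI (SE 0.13, adjusted p = 0.33) and 0.15 there without HI1, the highest tumour.

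Dnaja1 and Dnajb1 encode J-domain proteins, which bring clients to HSP70 and start its ATPase cycle. Dnaja1 was at 147, 155 and 164 CPM in HI, 164, 153 and 169 in HC, 170.4, 181 and 217 in MI, and 175, 164 and 172 in MC. HI tumours all lay below the MI tumours, as they did for 6.61% of all genes, and the groups overlapped in the other pairwise comparisons tested. The log2 difference was -0.28 in HI against MI (SE 0.09, edgeR unadjusted p = 0.0107, adjusted p = 0.244), and -0.18 without MI3. Averaged over treatment, the altitude difference was -0.18 (SE 0.07, edgeR unadjusted p = 0.0198, adjusted p = 0.202), opposite in sign to that of Hspa8.

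Dnajb1, the J-domain partner most used as a heat shock readout, was at 84.1, 72.6 and 64.8 CPM in HI, 67.8, 72.9 and 89.4 in HC, 68.9, 81.9 and 67.99 in MI, and 73.1, 72.9 and 73.6 in MC. The MC tumours were almost equal, and those of each other group spread to both sides of them. No pairwise log2 difference exceeded its SE of 0.12, the value in HC against MC being 0.07, and -0.06 without HC3.

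Hspb1 encodes HSP27, a small heat shock protein that holds unfolding proteins and binds actin. It was low, at 5.72, 5.28 and 2.54 CPM in HI, 11.1, 5.40 and 4.99 in HC, 11.8, 4.42 and 5.36 in MI, and 9.39, 4.996 and 2.88 in MC. Replicate 1 was the highest tumour of every group, and all groups overlapped. Its pooled within-group SD was 0.72 on the log2 scale, above that of 92.1% of genes, with 0.685 for Hspa1a (above 91.1%) and 0.50 for Hspa1b (above 83.0%). The log2 difference was 0.31 in HC against MC (SE 0.51, adjusted p = 0.876) and -0.67 in HI against MI (SE 0.51, adjusted p = 0.521).

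Hspb1 moved with markers of muscle and of fibroblasts across tumours. The summed level of 8 skeletal muscle markers (Acta1, Ckm, Myh4, Mylpf, Tnnt3, Tnni2, Actn3, Myh1) was 155, 146 and 61.98 CPM in HI, 301, 88.9 and 46.8 in HC, 476, 36.9 and 122 in MI, and 213, 98.0 and 40.8 in MC, with no marker at 0. Over 12 tumours Pearson's r between Hspb1 and this sum on the log2 scale was 0.864 (permutation p = 0.00041, adjusted p = 0.0267 over 130 relations of a member with a marker list). Spearman's rho was 0.902 (permutation p = 0.00023, adjusted p = 0.015). The value of r was 0.859 without the 2 tumours farthest from the median sum and 0.935 with group means removed. With 6 fibroblast markers (Col1a1, Col3a1, Pdgfra, Dcn, Lum, Fap), r was 0.863 (permutation p = 0.0002, adjusted p = 0.026), 0.748 without the 2 farthest and 0.856 with group means removed. The part of either tissue in the Hspb1 values was not tested.

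The third relation of the 130 with an adjusted p under 0.05 for r joined Hsp90ab1 to the summed epithelial markers. Its r was 0.841 (permutation p = 0.00065, adjusted p = 0.0282), 0.652 without the 2 farthest tumours and 0.81 with group means removed, and rho was 0.776 (adjusted p = 0.142). The epithelial sum was 4116 to 4548 CPM in HI, 4359 to 4784 in HC, 3685 to 4121 in MI and 4162 to 4448 in MC, so that MI was lowest for both. Hspa8 had r = 0.772 with the epithelial sum (permutation p = 0.00355, adjusted p = 0.115) and rho = 0.818 (adjusted p = 0.0845). Its r was 0.596 without the 2 farthest tumours and 0.79 with group means removed. Whether the epithelial content sets the level of Hsp90ab1 or Hspa8 was not tested.

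**Figure D3:**
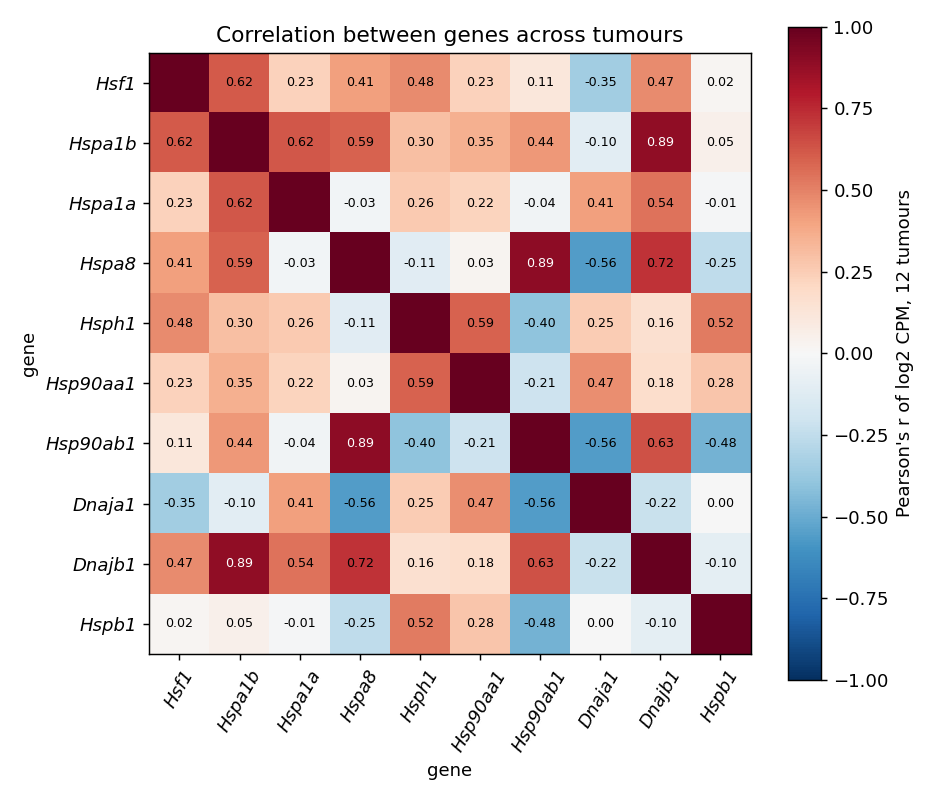
Pearson's r between the log2 CPM of each pair of the 10 genes over 12 tumours, as numbers and colours on a scale from -1 to 1. The darkest red cells are Hspa8 with Hsp90ab1 and Hspa1b with Dnajb1, both at 0.89, and Dnaja1 is negative with Hspa8 and Hsp90ab1, at -0.56.

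Among themselves the 10 genes were unevenly related. Of 45 pairs, 30 had a positive r, with a median of 0.23 over 12 tumours and 0.17 with group means removed. After adjustment over the 45 pairs, 2 had an adjusted permutation p under 0.05. Hspa8 and Hsp90ab1, the abundant constitutive chaperones, had r = 0.891 (permutation p = 0.00018, adjusted p = 0.00405) and rho = 0.818 (adjusted p = 0.0873), with r = 0.787 without the 2 farthest tumours and 0.937 with group means removed. Hspa1b and Dnajb1, an inducible HSP70 and its J-domain partner, had r = 0.887 (permutation p = 0.00012, adjusted p = 0.00405) and rho = 0.706 (adjusted p = 0.255), with 0.72 without the 2 farthest tumours and 0.897 with group means removed. HC3, HI1 and MI2 were the 3 highest tumours for both Hspa1b and Dnajb1. Genes of these 2 pairs also had positive r across the pairs. Hspa8 and Hsp90ab1 had r = 0.72 and 0.633 with Dnajb1 (adjusted permutation p = 0.127 and 0.239), and 0.862 and 0.799 with group means removed. With Hspa1b they had 0.593 and 0.437 (adjusted permutation p = 0.245 and 0.419), and 0.695 and 0.581 with group means removed. Without the 2 tumours farthest on Hspa1b, these 2 values were 0.17 and -0.03.

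The near-copies Hspa1a and Hspa1b had r = 0.622 (permutation p = 0.0319, adjusted p = 0.239) and rho = 0.434, which rests on the extreme tumours, since r was -0.11 without the 2 farthest. Hsph1 and Hsp90aa1 had r = 0.589 (permutation p = 0.0401, adjusted p = 0.245) and rho = 0.622, and r was 0.164 with group means removed. Hsf1 was most closely related to Hspa1b, with r = 0.616 (permutation p = 0.0272, adjusted p = 0.239) and rho = 0.448. The most negative pair was Hspa8 with Dnaja1, at r = -0.56 (permutation p = 0.0597, adjusted p = 0.268) and rho = -0.52, and r was -0.18 with group means removed. Hsp90ab1 with Dnaja1 also had r = -0.56, and -0.09 with group means removed.

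**Figure D4:**
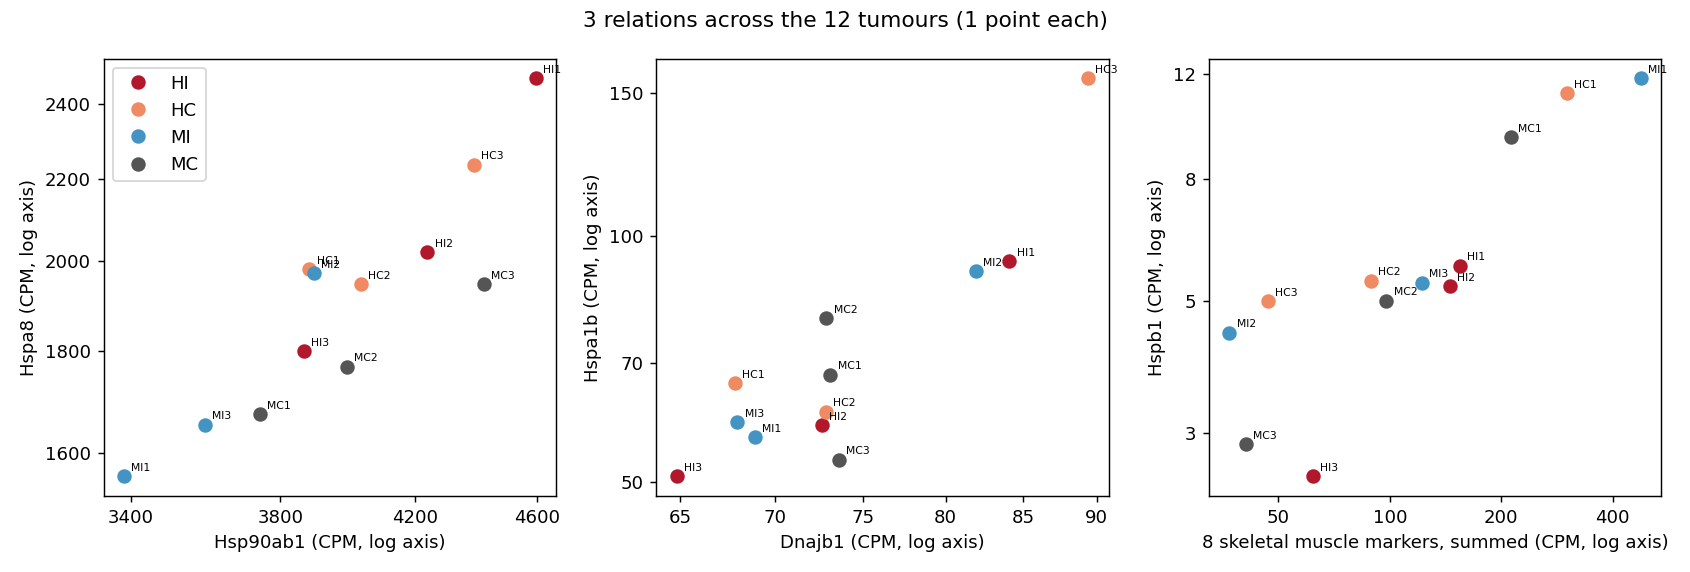
Relations across the 12 tumours, 1 labelled point each, on log axes in CPM: Hspa8 against Hsp90ab1 (r = 0.891), Hspa1b against Dnajb1 (r = 0.887), and Hspb1 against the sum of 8 skeletal muscle markers (r = 0.864). In the right-hand panel MI1, HC1 and MC1 are the 3 highest points.

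Other genes of the folding machinery were read from lists of the wider family, and by edgeR 0 genes of any list were called in any of the 7 comparisons. Beside the HSP90 pair, the list of 14 co-chaperones had 11 higher in HC than in MC, with a median log2 difference of 0.03 against -0.01 over all genes. Of the 14, 2 had an unadjusted p under 0.05 in that comparison, a count near the 12% of all genes. Fkbp5, which tunes steroid receptors on HSP90 and is a glucocorticoid target, was at 191, 168 and 156 CPM in HI, 306, 192 and 275 in HC, 170, 161 and 159.7 in MI, and 140, 169.8 and 136 in MC. Its HC tumours lay above all others, at a log2 difference of 0.79 in HC against MC (SE 0.16, edgeR adjusted p = 0.156) and -0.59 in HI against HC (SE 0.15, adjusted p = 0.964). Ppid, the cyclophilin of the HSP90 complex, was at 95.1 ± 8.50 CPM in HI, 119 ± 5.08 in HC, 118 ± 21.1 in MI and 99.3 ± 2.96 in MC. Its interaction of -0.56 (SE 0.16, adjusted p = 0.596) was below 0, as it was for 11 of the 14 co-chaperones (median -0.13). Chordc1, a heat-inducible partner of HSP90, was at 144 CPM in MI3 and at 54.9 to 83.1 in the other 11 tumours. Cdc37, which hands kinases to HSP90, had a log2 difference of -0.20 in MI against MC (SE 0.09, adjusted p = 0.492).

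The remaining HSP70 and HSP110 family had 6 of 7 higher in HC than in MC, with a median log2 difference of 0.13. In HI against MI 0 of 7 were higher (1 of 7 on the FPKM scales), with a median of -0.24. Their summed level was 388 to 410 CPM in HI and 435, 405 and 537 in MI, so that MI3 stood apart. Hspa4, a close relative of Hsph1, was at 263, 282 and 286 CPM in HI and 298, 292 and 388 in MI, at a log2 difference of -0.24 (SE 0.10, adjusted p = 0.314). Hspa12b, an HSP70 relative of endothelial cells, was at 4.10, 5.67 and 4.53 CPM in HI and 7.66, 6.92 and 7.30 in MI, at -0.61 (SE 0.17, adjusted p = 0.213). Both sets of HI tumours lay below their MI tumours, and the endothelial sum given above was also lower in HI. Hspa14, the ribosome-bound HSP70, had a log2 difference of 0.16 in HC against MC (SE 0.07, adjusted p = 0.38).

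Of 9 other cytosolic J-domain proteins, 6 were higher in HC than in MC and 6 higher in HI than in MI, and 3 had an unadjusted p under 0.05 in the averaged altitude effect, where 17.3% of all genes did. Dnajc5, the cysteine string protein of vesicles, was at 184, 178 and 172 CPM in HI and 148, 164 and 144 in MI, at a log2 difference of 0.23 (SE 0.08, adjusted p = 0.246). Dnajb4, a relative of Dnajb1, had -0.26 in the averaged altitude effect (SE 0.11, adjusted p = 0.241). Of 8 small heat shock proteins other than Hspb1, 5 were tested and 0 had an unadjusted p under 0.05 in any comparison. Cryab, which encodes alpha B crystallin, was at 20.9 ± 6.26 CPM in HI, 23.1 ± 1.41 in HC, 20.4 ± 3.58 in MI and 19.8 ± 0.962 in MC.

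Of the HSP70 co-factors, 4 of 8 were higher in HC than in MC and 5 of 8 in HI than in MI. Bag3, an HSF1 target that links HSP70 to autophagy, was at 77.4 ± 2.20 CPM in HI, 83.8 ± 10.9 in HC, 74.5 ± 3.11 in MI and 82.2 ± 1.52 in MC, with HC3 highest at 96.4. Stub1, the ubiquitin ligase that disposes of chaperone clients, had a log2 difference of -0.24 in MI against MC (SE 0.09, adjusted p = 0.492). Of the other heat shock factors and their binding protein, 3 of 4 genes were tested, and 0 had an unadjusted p under 0.05 in a pairwise comparison. Hsf2, the related factor, was at 20.7 ± 1.29 CPM in HI, 18.4 ± 0.727 in HC, 24.1 ± 6.03 in MI and 20.2 ± 1.36 in MC, and MI3 was its highest tumour at 30.99. The 8 subunits of the chaperonin TRiC, which folds actin and tubulin, were all lower in MI than in MC (7 of 8 with DESeq2 size factors) and all higher in HI than in MI, by medians of -0.07 and 0.05 on the log2 scale, with 0 at an unadjusted p under 0.05 in either.

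The paralogues outside the cytosol gave small differences too. All 6 endoplasmic reticulum chaperone genes were higher in MI than in MC (median log2 difference 0.16) and lower in HI than in MI (median -0.20), against medians over all genes of 0.01 and -0.01. In each comparison 2 of 6 had an unadjusted p under 0.05, where 9.39% of all genes did in MI against MC and 15.2% in HI against MI. The plasma cell gene Jchain was at 8.35, 1.70 and 5.50 CPM in HI, 6.15, 14.5 and 4.88 in HC, 559, 3.67 and 17.4 in MI, and 0.982, 4.09 and 1.68 in MC, so that MI1 stood apart. The plasma cell gene Mzb1 was at 43.7 CPM in MI1 and under 1 CPM in the other 11 tumours. Their part in the endoplasmic reticulum values was not tested. Hspa5, which encodes BiP, was at 1402 ± 38.1 CPM in HI, 1614 ± 120 in HC, 1534 ± 117 in MI and 1456 ± 133 in MC. Hsp90b1, which encodes GRP94, had an interaction of -0.38 (SE 0.16, adjusted p = 0.596). Dnajb9, the J-domain partner of BiP, was at 45.0, 39.99 and 45.2 CPM in HI and 77.9, 52.3 and 129 in MI, and the log2 difference was -0.99 (SE 0.25, adjusted p = 0.193). Of 6 mitochondrial chaperones, Hspa9, the mitochondrial HSP70, had the smallest adjusted p, with 0.25 in the averaged altitude effect (SE 0.08, adjusted p = 0.139).

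The tumour-by-tumour order of the 10 genes as 1 score, the mean of their z-scores, was highest in HC3 (1.14), MI2 (0.60) and HI1 (0.34) and lowest in HI3 (-0.82) and MC3 (-0.56). These 5 tumours come from all 4 groups. Every HC score lay above every MC score, at 0.05, 0.07 and 1.14 in HC and -0.15, -0.12 and -0.56 in MC, and the scores overlapped in HI against MI, MI against MC and HI against HC. Taken singly, 10.3% of all genes lay higher in HC than in MC without overlap. Hsf1, Hsph1 and Hsp90aa1, which are part of the score, were among them. Among 10828 genes at a mean of at least 5 CPM, those most like this score over the 12 tumours were Mcoln1 (r = 0.854), Fosb (0.833), Tom1l1 (0.805), Slc26a11 (0.805), Myo10 (0.794), Fgd6 (0.792), Cars (0.787) and Numb (0.784). The least like it were Tspyl4 (-0.80), Naaa (-0.80), Camk1d (-0.76) and Ift20 (-0.76). For single members the closest gene was Sipa1l2 for Hsf1 (r = 0.86), Midn for Hspa1a (0.821), Appbp2 for Hspa1b (0.886), Polr3a for Hspa8 (0.974) and Ahcyl2 for Hsph1 (0.873). It was Nars for Hsp90aa1 (0.905), Eef2 for Hsp90ab1 (0.983), Cilp for Hspb1 (0.963), Tnrc6a for Dnaja1 (0.946) and Ccnk for Dnajb1 (0.888). With group means removed, the r of these closest genes of single members ran from 0.83 to 0.976 except for Ahcyl2 and Hsph1, at 0.511. The genes were picked as extremes among many, and r is a description of these 12 libraries.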

How the data were processed

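RNA of 12 tumours from separate mice was sequenced as 150-base read pairs. Per the submitters' processing notes, the build was GRCm39 and the tools were HISAT2 2.1.0, HTSeq 0.11.2, fastp 0.20.1, R 3.5.1 and DESeq2 1.22.2. The authors deposited raw counts and FPKM for 35434 genes, of which 24312 had counts. No source used here gives their annotation or strand setting.

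The main test was the quasi-likelihood fit of edgeR 4.0.16 under R 4.3.3, with TMM factors, filterByExpr and all 12 libraries as 4 group means, after a trial on simulated counts. Alternatives were DESeq2 1.42.0, limma 3.58.1, other filters, scalings and pseudocounts (0.1 and 1 on FPKM), Hspa1a and Hspa1b summed, a replicate block and each library left out. CPM use a prior count of 2 before log2 for correlations, with 100000 permutations.

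Members and lists were chosen with earlier results of these data known. Named genes are all members, up to 4 per list by smallest edgeR p, 5 fixed genes (Hsf2, Cryab, Bag3, Hspa5, Hsp90b1), and the extremes of likeness. Same-numbered HC and MC libraries deviated together (r of deviations from group means 0.278, 0.153 and 0.209), and in the other pairs of groups at least 1 number had r under 0.1. The marker Trac was not found in the table. A marker list with an item that is not reported here was left out.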

Additional observations from a re-analysis of the deposited data

Results flagged for a closer look

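The altitude by IOX2 interaction of Hsph1 was -0.776 on the log2 scale (edgeR adjusted p = 0.596). It is listed because every HC tumour lay above every MC tumour while every HI tumour lay below every MI tumour, and the IOX2 comparisons were opposite in the same way. The interaction of Hsp90aa1 was -0.411 (edgeR adjusted p = 0.596), listed because every MI tumour lay above every MC tumour while every HI tumour lay below every HC tumour. Neither difference passed edgeR's threshold over all genes.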

How the results depend on the processing

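Of 1510 log2 values of members under the alternatives, 1494 kept their direction within their error and their side of the threshold, 14 turned sign by more than their error, and 2 newly passed. Those 2 were Hsph1 by DESeq2, so that members called were 1 in HI against MI and 1 in the interaction, in place of 0. Leaving out 1 library gave ranges, in HC against MC, of -0.69 to 0.48 for Hspa1a, -0.0732 to 0.73 for Hspa1b and -0.0573 to 0.15 for Dnajb1, with the low ends without HC3. In HI against HC the ranges were -1.16 to 0.00468 for Hspa1a, -0.78 to 0.0907 for Hspa1b and -0.16 to 0.0703 for Dnajb1, with the high ends without HC3, and -0.10 to 0.13 for Hspa8, with the low end without HI1. In MI against MC they were -0.22 to 0.87 for Hspb1 (low end without MI1) and -0.27 to 0.54 for Hspa1a (low end without MI2). For Hspa1b they were -0.0493 to 0.36 in the averaged altitude effect, -0.37 to 0.0668 in the averaged IOX2 effect and -0.83 to 0.0478 in the interaction, and for Hspa1a -0.56 to 0.14 in the averaged IOX2 effect, in each of these with the end of opposite sign without HC3. With Hspa1a and Hspa1b summed, the averaged altitude effect of the sum was 0.20, against -0.39 for Hspa1a alone. The cause of these turns was not tested. With a replicate block, that is, a paired fit, 0 members were called in any comparison, the interaction of Hsph1 was -0.78 (adjusted p = 0.525), and the SE of Hspb1 in HC against MC was 0.26 in place of 0.51. Over all genes, HC against MC had 0 calls in the main edgeR fit, 13 with the block, 63 with only these groups in the fit and 303 by DESeq2, so that the background a member is read against depends on the tool. Hspa1a and Hspb1, both under 12 CPM, varied widely between tumours of a group, which limits what their values can show. Their pooled within-group SDs were 0.685 and 0.72 on the log2 scale. Mapped reads were at hand only as counts, so the split between Hspa1a and Hspa1b could not be examined further.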
